A study of Mus musculus with 2 samples.

Results

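The genes described here are the interferon receptors, the interferon regulatory factors and STAT2, the cytosolic RNA sensors, a set of interferon-stimulated antiviral effectors, and the proteins that load peptides onto MHC class I. They were taken from a list of 41 genes by symbol, using every probe set that the platform annotation assigned to a listed gene alone. This gave 66 probe sets for 40 genes, out of 34945 such probe sets for 18193 genes on the array. Isg15, which encodes the ubiquitin-like protein ISG15, had no probe set of its own. The probe set it shares with Gm9706 read a signal of 164 untreated and 133 with estradiol.

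The cells were G1E, a GATA-1-null mouse line of the erythroid lineage, and on both arrays they carried ER-GATA-1(V205G). In this fusion the hormone-responsive part of the estrogen receptor is attached to GATA-1 with the V205G change, which weakens contact with the cofactor FOG-1, so that adding estradiol switches the factor on. One sample was taken before estradiol (0 h) and the other after 24 h with 1 µM estradiol, each on 1 short-oligonucleotide array of total RNA. The promoter that drives the fusion and whether the line is 1 clone are not given in the sources used here. There was no untreated array at 24 h and no estradiol-treated array of cells without the fusion, so activation of the mutant, estradiol itself and time in culture cannot be told apart. In bulk RNA, fewer cells of a type and less RNA per cell cannot be told apart either. With 1 array in each group there was no test, and each difference below is a difference between 2 arrays.

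Type I interferons bind a cell surface receptor whose kinases, JAK1 and TYK2, phosphorylate STAT factors. STAT2 acts with IRF9 in a complex that binds the interferon-stimulated response element in the promoters of antiviral genes, while signalling by interferon gamma acts through the gamma-activated site. Cytosolic sensors of viral RNA act upstream by turning on the interferon genes themselves. Interferon also raises the proteasome, transporter and chaperone genes that supply peptides to MHC class I. Interferon gamma is known to restrain red cell production in the marrow.

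A probe set was called measured where its signal reached a floor of 95.2, the 50th percentile of all signals, on both arrays. Differences are log2 ratios, with estradiol in the numerator. Where a gene had several probe sets, the one with the highest mean signal stood for it. As a yardstick, log2 ratios of probe sets for the same gene had an SD of 0.25 around their mean, pooled over genes. A limit of 2 SD comes to 0.63 for genes in the lowest tertile of signal (averaged over a gene's probe sets), 0.54 in the middle tertile and 0.41 in the highest. It covers probe noise and transcript forms, not differences between cultures.

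Of the 40 genes, 24 (60.0%) were measured on both arrays, close to the 56.3% of all genes on the array. Usp18, which removes ISG15 from proteins and dampens interferon receptor signalling, was the 1 measured gene at least 2-fold higher after estradiol, and 0 were at least 2-fold lower. The background is 2.04% higher and 1.10% lower by that fold among all 10240 measured genes (209 and 113 genes, or 160 and 161 with both arrays set to a common median). At 3-fold 0 genes of the list passed in either direction, against 0.479% and 0.205%. At 1.5-fold, Usp18 and Oas1a were higher (8.33% of 24) and Tapbp, Ifitm2 and Dhx58 lower (12.5% of 24), against 7.11% and 4.85% of all measured genes. Of the 24 genes, 15 had a ratio below 0 and their median log2 ratio was -0.19, while 5111 of all 10240 genes (49.9%) were below 0 with a median of 0.0003. The share below 0 depends on the scaling. With a common median it was 16 of 24 (66.7%), against 63.4% of all measured genes. Beyond 2 SD for their tertile of signal lay Usp18 and Oas1a on the higher side and Tapbp and Ifitm2 on the lower side. The background for that rule is 8.05% of measured genes higher and 6.58% lower. Each of these counts is of 0 to 3 genes, and 20 of the 24 lay within 2 SD at the scaling used here. Dhx58, Ifngr2 and Tap2 passed the same limits with at least 1 other scaling, as given below.

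**Figure D1:**
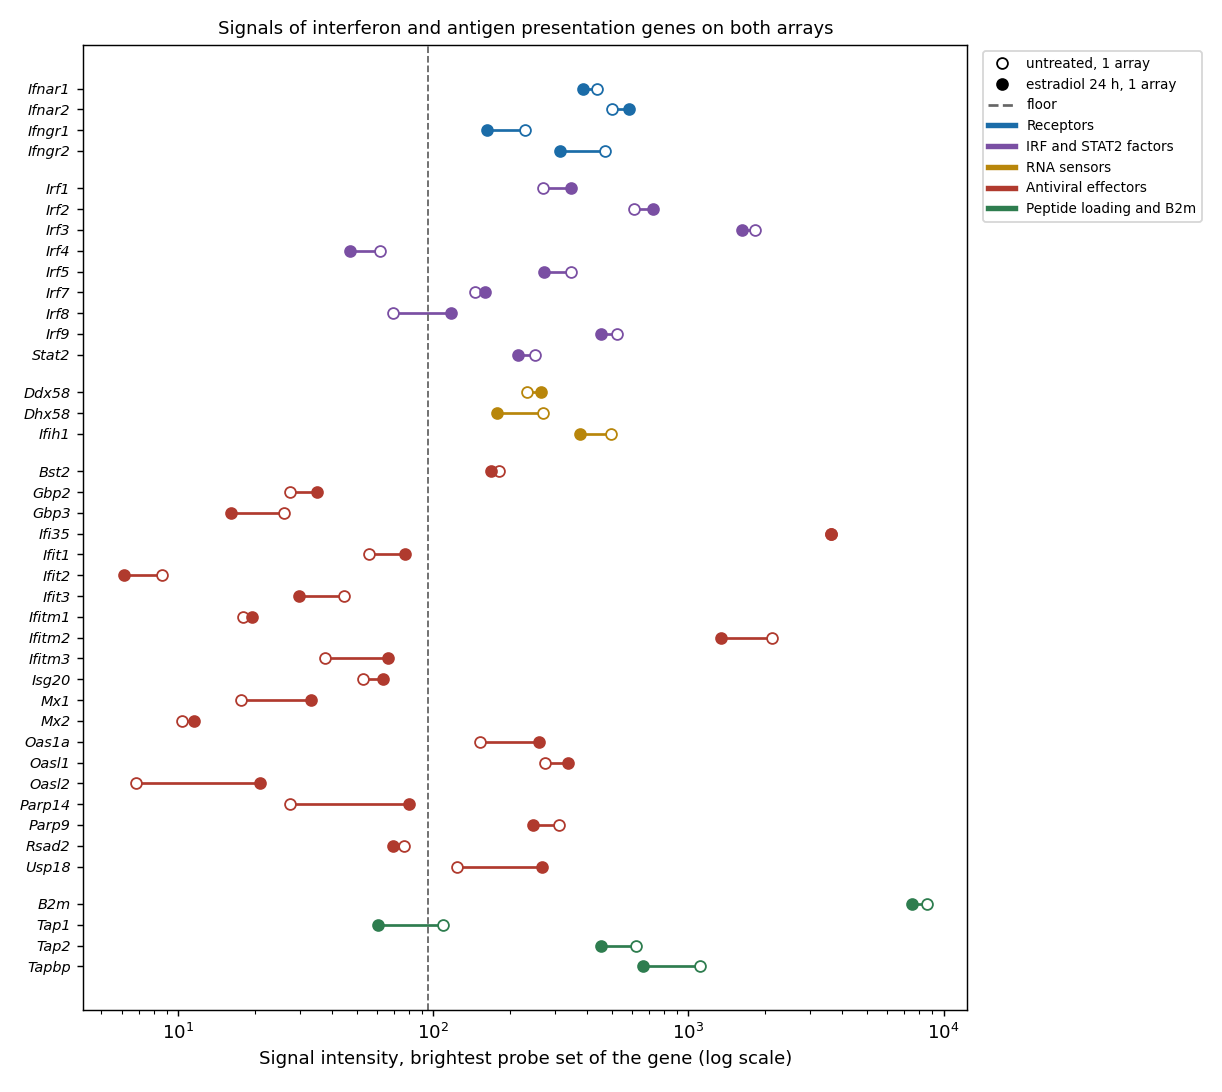
Signal intensity (log scale) of the brightest probe set of each of the 40 genes, with 1 open point for the untreated array and 1 filled point for the estradiol array, coloured by role. The dashed line is the floor of 95.2, and 14 genes have both points to its left, 13 of them antiviral effectors.

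All 4 interferon receptor genes were measured, and none differed by 1.5-fold. Ifnar1 and Ifnar2 encode the chains of the type I interferon receptor. Ifnar1 read 438 untreated and 387 with estradiol, a log2 ratio of -0.18. Ifnar2 read 503 and 586 (0.22), and its other probe sets gave 0.04 and -0.16, so its probe sets do not share a direction. Both genes lay within the limit of 0.54 for their signal.

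The receptor genes for interferon gamma read lower on their brightest probe sets. Ifngr1, the ligand-binding chain, read 230 untreated and 162 with estradiol (log2 ratio -0.50, 1.42-fold lower). Ifngr2, the signalling chain, read 470 and 314 (log2 ratio -0.58), just short of 1.5-fold. A second Ifngr2 probe set gave 318 and 323 (0.02), so the lower reading of Ifngr2 rests on 1 of its 2 probe sets. Both genes lay within the limit of 0.63 for their signal at the scaling used here. Ifngr2 passed that limit with a common median (-0.69) and after quantile normalization (-0.64).

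No transcription factor gene among the 41 listed genes differed by 1.5-fold on its brightest measured probe set. IRF1 and IRF2 bind the same sites, the former mostly as an activator and the latter mostly as a repressor. Irf1 read 269 untreated and 347 with estradiol (log2 ratio 0.36), and Irf2 read 612 and 723 (0.24). Both were higher with estradiol, by less than 1.5-fold.

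Of the factors that act downstream of pathogen sensors, Irf3 and Irf7 were near 0 and Irf5 was lower. Irf3, the constitutive factor activated by viral RNA, read 1823 untreated and 1620 with estradiol (log2 ratio -0.17), and its other measured probe sets gave -0.10 and -0.11. That brightest probe set is of the kind whose probes can read related transcripts. Irf7, which amplifies type I interferon production, read 146 and 159 (0.13). Irf5, a factor of Toll-like receptor signalling, read 345 and 272 (-0.35), while its dimmer probe set read 164 and 101 (-0.70), so both were lower with estradiol, the dimmer one beyond the limit of 0.63.

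Stat2 and Irf9, whose proteins act together in the interferon-activated complex, read slightly lower. Stat2 read 250 untreated and 215 with estradiol (log2 ratio -0.22). Its second probe set read 133 and 86.4, the latter below the floor, which makes it at least 1.39-fold lower there. Irf9, the DNA-binding subunit, read 524 and 452 (-0.21).

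The lineage-restricted factors Irf4 and Irf8 were dim. Irf4, a factor of lymphocytes, read 61.5 and 47.0, below the floor on both arrays. Irf8, a factor of monocytes and dendritic cells, read 69.3 untreated, below the floor, and 117 with estradiol, at least 1.23-fold higher. The other Irf8 probe set read 12.7 and 4.20, so the reading above the floor rests on 1 of its 2 probe sets.

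All 3 cytosolic RNA sensor genes were measured. Ifih1, which encodes MDA5, read 496 untreated and 376 with estradiol (log2 ratio -0.40). Dhx58, which encodes the regulatory sensor LGP2, read 270 and 178 (-0.60, 1.52-fold lower), within the limit of 0.63 for its signal, and its other 2 probe sets were below the floor. Ddx58, which encodes RIG-I, read 233 and 264 (0.18), and its other probe sets were below the floor on both arrays. The sensors thus went both ways, with none past 2 SD at the scaling used here. With other scalings Dhx58 passed the same limit of 0.63. It was at -0.72 with a common median, -0.71 after quantile normalization and -0.71 after loess.

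**Figure D2:**
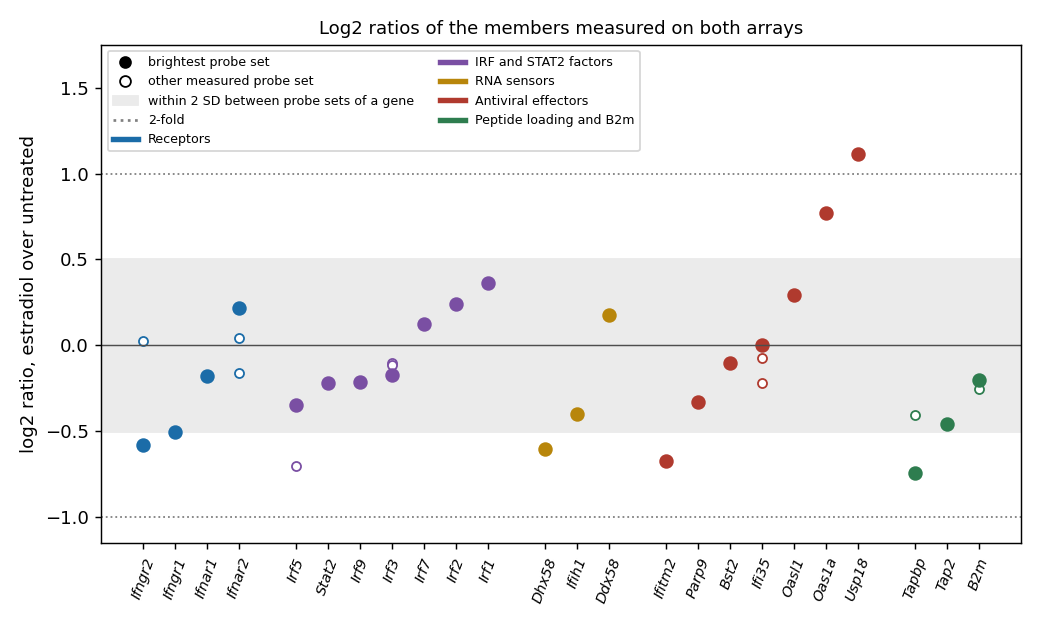
Log2 ratio of estradiol over untreated for the 24 genes measured on both arrays, grouped by role, with filled points for the brightest probe set and open points for other measured probe sets. The grey band is 2 SD between probe sets of a gene over all genes (0.50) and the dotted lines are 2-fold; Usp18 at 1.11 is the only filled point past 2-fold.

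The antiviral effector genes were mostly dim in these cells, with and without estradiol. Of 20 effector genes with their own probe set, 7 (35.0%) were measured and 13 were below the floor on both arrays. Over the whole array, 56.3% of 18193 genes were measured and 6764 were below the floor on both arrays. The genes below the floor included classical interferon-stimulated genes: Ifit1, Ifit2 and Ifit3, whose proteins bind viral RNA, Mx1 and Mx2, which encode dynamin-like GTPases, Rsad2, which encodes viperin, and the guanylate-binding protein genes Gbp2 and Gbp3. Isg20, Oasl2, Parp14, Ifitm1 and Ifitm3 were below it too. Over these 13 genes and Irf4, signals ran from 6.80 to 76.4 with a median of 27.4 untreated, and from 6.10 to 80.2 with a median of 34.0 with estradiol. No ratio was formed for them, and signals below the floor do not show that a transcript was absent.

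Usp18 and Oas1a were the effector genes with higher readings. Usp18 had a signal of 123 without estradiol and of 267 with it, a 2.16-fold difference (log2 ratio 1.11). Its untreated signal is close to the floor, and raising the floor to the 70th percentile put both arrays below it, which leaves no ratio. After loess its log2 ratio was 1.00. Oas1a, which encodes an enzyme that makes the activator of RNase L, read 153 and 261, 1.70-fold higher (log2 ratio 0.77). Both genes had a single probe set, so neither ratio could be checked against a second one.

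Of the other measured effector genes, Ifitm2 differed most. Ifitm2, which encodes a membrane protein that hinders virus entry, read 2135 untreated and 1337 with estradiol, 1.60-fold lower (log2 ratio -0.68), beyond the limit of 0.41 for its signal. Its family members Ifitm1 (18.0 and 19.4) and Ifitm3 (37.7 and 66.5) were below the floor, and probes for these close relatives can cross-hybridise. Parp9, which works with the ubiquitin ligase DTX3L, read 309 and 246 (-0.33).

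Oasl1, a regulator of Irf7 translation, read 274 untreated and 336 with estradiol (log2 ratio 0.30). Bst2, which encodes tetherin, read 181 and 169 (-0.10). Ifi35 read 3625 and 3630.0 on its brightest probe set, a log2 ratio of 0.0020 that turned to -0.11 with a common median, and -0.07 and -0.22 on the others. These 3 genes therefore differed by less than 2 SD.

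Some promoters of these genes carry the letters of the response element, among measured genes and among genes below the floor, and examples of both are shown because the element links the list to interferon signalling. Windows from 250 bases before to 50 after an annotated start were taken from RefSeq (GRCm38.p6) and matched 34 of the 41 listed genes; Dhx58, Mx1, Mx2, Parp14, Parp9, Tap2 and Usp18 had none. The core searched was GAAA, any 2 bases, then GAAA again, on both strands and with overlapping matches allowed. It was found in 15 of 34 genes (44.1%), against 1079 of all 27025 genes with a window (3.99%). The genes were listed as known interferon targets and partners, so this share describes the list and is not a result of the treatment. In the lines below capitals mark the matched letters, which read TTTC, any 2 bases, TTTC where the match is on the other strand, and each sequence runs 5′ to 3′ on the strand of its gene. The first 5 genes were measured on both arrays, and the last 4 were below the floor on both.
Oas1a, chr5:120907526-120907560, minus strand: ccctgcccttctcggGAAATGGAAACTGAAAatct
Bst2, chr8:71537572-71537617, minus strand: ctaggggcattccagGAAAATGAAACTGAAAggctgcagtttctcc
B2m, chr2:122147533-122147572, plus strand: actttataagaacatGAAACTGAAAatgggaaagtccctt
Ifitm2, chr7:140955983-140956022, minus strand: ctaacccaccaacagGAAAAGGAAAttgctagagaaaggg
Stat2, chr10:128270261-128270300, plus strand: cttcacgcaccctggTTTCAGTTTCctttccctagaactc
Ifit1, chr19:34640770-34640828, plus strand: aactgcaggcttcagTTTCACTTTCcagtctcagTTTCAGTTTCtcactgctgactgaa
Ifit3, chr19:34583358-34583431, plus strand: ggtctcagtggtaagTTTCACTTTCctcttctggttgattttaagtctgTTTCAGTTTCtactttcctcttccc
Gbp2, chr3:142620589-142620628, plus strand: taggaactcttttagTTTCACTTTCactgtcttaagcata
Rsad2, chr12:26456548-26456587, minus strand: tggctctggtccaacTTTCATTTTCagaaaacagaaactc

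Measured genes with and without the core had similar medians on these arrays. Of the 14 genes with the core and a probe set of their own, 8 were measured, 5 of them below 0, with a median log2 ratio of -0.15 and a range from -0.68 (Ifitm2) to 0.77 (Oas1a). Of the 19 genes with a window but no core, 12 were measured, 7 of them below 0, with a median of -0.17. The double match of Oas1a, printed above, is shared in form by Bst2, whose log2 ratio was -0.10. The gamma-activated site TTCNNNGAA, which is its own reverse complement, was found in 11 of 34 genes (32.4%) against 9.55% of all genes with a window. The GATA letters AGATAA or TGATAA, on either strand, were found for 7 of 34 genes (20.6%): Gbp2, Ifitm3, Irf7, Irf9, Isg20, Oasl2 and Tapbp, against 18.6% of all 32851 windows, of which a gene can have several. A match is a description of letters, not of binding.

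**Figure D3:**
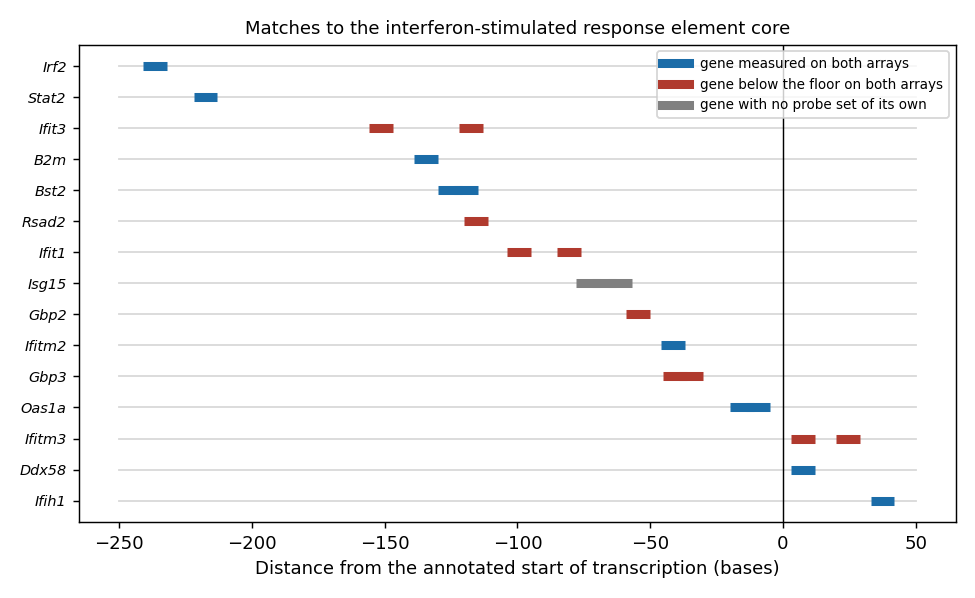
Positions of the response element core relative to the annotated start (0) in the 15 genes that hold it, from 250 bases before to 50 after; blocks are the matched bases, coloured by whether the gene was measured, below the floor on both arrays or without its own probe set. In 12 of the genes a match lies before the start; first bases run from -241 to 33 in measured genes and from -156 to 20 in genes below the floor.

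The genes that bring peptides to MHC class I read lower with estradiol, each by a small amount. Tapbp, which encodes tapasin, the protein that bridges MHC class I to the peptide transporter, read 1111 untreated and 664 with estradiol, 1.67-fold lower (log2 ratio -0.74). Its second probe set read 456 and 343 (-0.41). Tapbp was beyond the limit of 0.54 for its signal on the brightest probe set and within it on the other.

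The peptide transporter genes and the light chain gene were also lower on their brightest probe sets. Tap2, a chain of the transporter, read 624 and 455 (log2 ratio -0.46, 1.37-fold lower). Tap1, the other chain, read 109 untreated and 60.9 with estradiol, below the floor, at least 1.15-fold lower. That reading rests on 1 of 4 Tap1 probe sets, since the other 3 read at most 7.70, far below the floor, on both arrays. B2m, the light chain of every MHC class I molecule, read 8625 and 7498 (-0.20), with 5928 and 4965 (-0.26) on its second probe set. Tap2 and B2m lay within 2 SD of 0.

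The other MHC class I genes on these arrays went the same way on their brightest probe sets. All 9 measured genes of a further list of class I genes were below 0, with a median log2 ratio of -0.26 and a range from -0.65 to -0.07. Together with Tapbp, Tap2 and B2m, 12 of 12 measured class I genes were below 0, against 49.9% of all genes. With a common median it was 12 of 12 against 63.4%, and with the floor at the 70th percentile 10 of 10 against 54.5%. Of the 12, only Tapbp and Erap1 lay beyond the limit for their signal at the scaling used here. None of the 9 reached 2-fold. Erap1, which trims peptides in the endoplasmic reticulum, was lowest at -0.65, beyond the limit of 0.63 for its signal, but its second probe set gave -0.10. The proteasome genes Psmb10 (-0.37) and Psme1 (-0.33), the heavy chain genes H2-K1 (-0.26) and H2-D1 (-0.16), and the general chaperone genes Calr (-0.27) and Canx (-0.07) lay between. Further probe sets of H2-K1 gave 0.03 and 0.89 and one of H2-D1 gave 0.06, and heavy chain genes are close copies. With the second brightest probe set taken instead, 10 of 12 class I genes were below 0. Psmb8, an immunoproteasome subunit gene, read 7.80 and 6.40, below the floor.

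**Figure D4:**
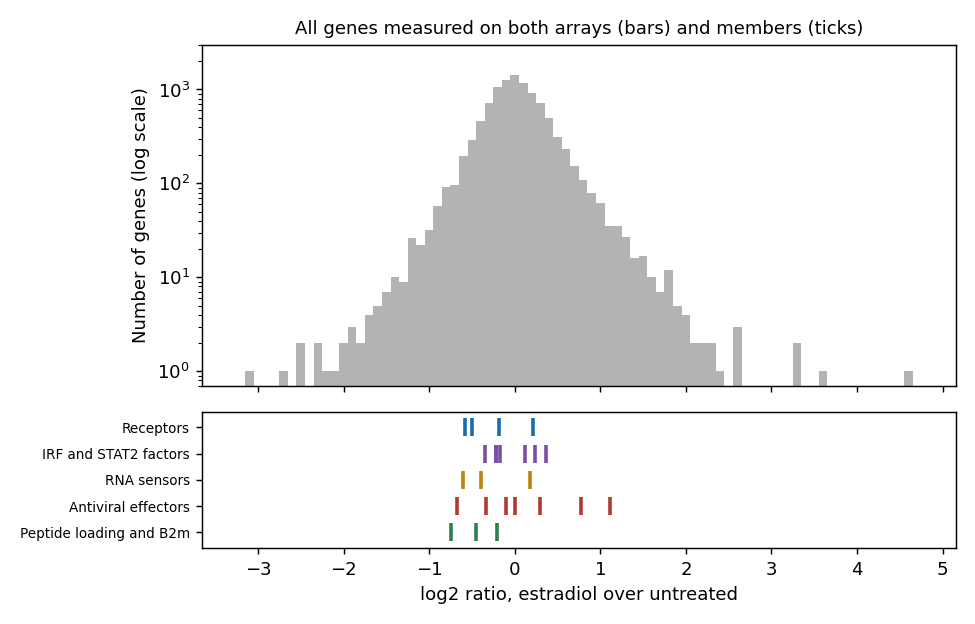
Upper panel, number of genes (log scale) by log2 ratio of estradiol over untreated for all 10240 genes measured on both arrays, in bins of equal width; lower panel, 1 tick for each of the 24 measured genes of the list, in a row for each role. The ticks run from -0.74 (Tapbp) to 1.11 (Usp18), inside the range of all genes from -3.11 to 4.61, and the 3 peptide loading ticks all lie below 0.

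Among measured genes of the further pathway lists, Ube2l6 and Lgals9 differed most, each by more than Usp18. Of 23 measured genes in a list of other interferon-stimulated genes, Ube2l6 was at least 2-fold higher and Lgals9 at least 2-fold lower, 1 gene each, where all measured genes had 2.04% and 1.10%. Ube2l6, the conjugating enzyme for ISG15, read 180 untreated and 599 with estradiol, a log2 ratio of 1.74 (3.33-fold). Raising the floor to the 70th percentile left a bound of 0.91. Lgals9, which encodes the lectin galectin-9, read 4273 and 1505, 2.84-fold lower (-1.51). Ube2l6 and Lgals9 each had a single measured probe set, so neither ratio could be checked against a second one. The list had a median of -0.10, with 8 genes above 0 and 15 below, against 49.9% below 0 over all genes. With a common median 18 of 24 (75%) were below 0, against 63.4% of all genes.

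Uba7 and Herc6, named here after their values were seen, also belong to the ISG15 pathway. Uba7, the activating enzyme for ISG15, read 484 untreated and 687 with estradiol (log2 ratio 0.51), with 1.08 and 0.87 on its other probe sets. Herc6, an ISG15 ligase gene in mouse, read 196 and 234 (0.26), within the limit of 0.63. Its other probe sets were below the floor on both arrays. Trim25, whose product is also an ISG15 ligase, was lower on each of its 3 probe sets (log2 ratios of -0.31, -0.28 and -0.16). The measured genes that attach or remove ISG15 therefore went both ways, and no list of them was drawn up apart from these values. The Isg15 probe set shared with Gm9706 had a log2 ratio of -0.30.

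Of the kinases at the receptors, Jak1 was higher on each of its 3 probe sets. Jak1 read 2076 untreated and 3874 with estradiol (log2 ratio 0.90), and its other probe sets gave 0.89 and 0.80. All 3 lay short of 2-fold and beyond the limit of 0.41. Tyk2, its partner at the type I receptor, read 523 and 562 (0.10, or -0.0080 with a common median), with 0.38 on its second probe set. Socs1, which inhibits these kinases, read 121 and 175 (0.53), within the limit of 0.63. Socs3, another inhibitor of the same family, read 181 and 95.9 (-0.92), lower and beyond that limit. Its estradiol signal is just above the floor of 95.2. A second Socs3 probe set read 162 and 72.5, the latter below the floor, at least 1.70-fold lower. Another read 32.9 and 94.9, below the floor on both arrays, so it gives no ratio, though its signal was higher with estradiol. The lower Socs3 readings come from probe sets of the kind whose probes can read related transcripts. A lower Socs3 therefore does not hold across its probe sets. Ptpn6, a phosphatase that acts on these kinases, had -0.40, and -0.92 on its second probe set. Cish and Stat3, of the same list of receptor-proximal genes, were higher and beyond the limit of 0.41. Cish read 1406 and 2052 (0.55). Stat3 read 1393 and 2100 (0.59), with 0.64 and -0.14 on its other measured probe sets. Socs3, Ptpn6, Cish and Stat3 were named after their values were seen. Of 11 measured genes of receptor-proximal signalling 0 were at least 2-fold higher or lower. There were 7 above 0 and 4 below, and their median was 0.13.

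Most adaptor and kinase genes that lead to interferon production were measured, while no interferon gene was measured on a probe set of its own. Of 8 measured adaptor and kinase genes 0 passed 2-fold, with a median log2 ratio of 0.19. Ticam1 (0.90) and Mavs (0.70), the adaptors of Toll-like receptor 3 and of the RNA sensors, were past 1.5-fold higher, as were 7.11% of all measured genes. Trim25 (-0.31), Myd88 (-0.27) and Tank (-0.07) were the 3 genes below 0. These 5 genes were named after their values were seen. Of 6 interferon genes with a probe set of their own, 0 were measured on both arrays, against 56.3% of all genes. Ifnb1, the interferon beta gene, read 74.0 and 114, and Ifna1 read 84.5 and 131, both below the floor untreated and above it with estradiol, which gives bounds on the log2 ratio of at least 0.26 and 0.47. Ifng, the interferon gamma gene, read 4.10 and 2.30. A pair of probe sets shared by several interferon alpha genes, Ifna1 among them, was above the floor on both arrays and went both ways: 1 read 158 untreated and 175 with estradiol (log2 ratio 0.15), the other 151 and 101 (-0.57).

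**Figure D5:**
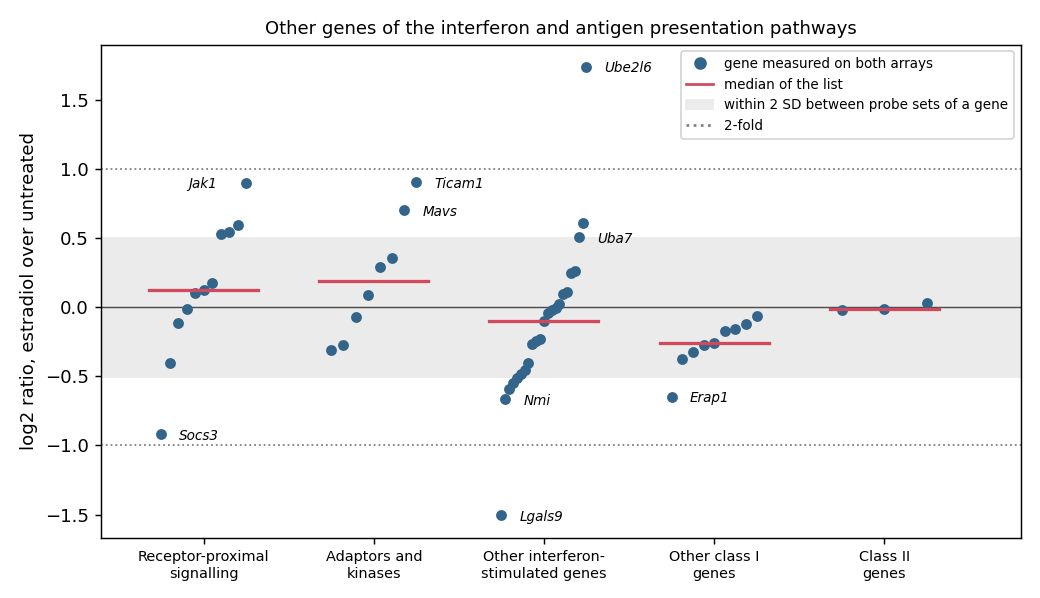
Log2 ratio of estradiol over untreated for genes of 5 further lists that were measured on both arrays, 1 point for each gene's brightest probe set and a red line for the median of each list. The grey band is 2 SD between probe sets of a gene (0.50); Ube2l6 (1.74) and Lgals9 (-1.51) are the points past 2-fold, and the 9 class I points all lie below 0.

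Marker genes of other blood cells and of the erythroid lineage were read beside these differences. The summed signal of 8 macrophage and monocyte markers was 955 untreated and 1050.0 with estradiol, with 3 and 4 of them above the floor. For 8 dendritic cell markers, which include Bst2, it was 1237 and 1193 (4 and 6 above the floor). For 8 lymphoid markers it was 650 and 584 (2 and 2), and for 7 neutrophil markers 230 and 373 (0 and 2). For 10 mast cell markers it was 16062 and 12056 (7 and 8). For 9 genes listed as erythroid markers, Gata2 among them, it was 31745 and 39695 (8 and 9). These sums cover opposite differences within a list. Among mast cell markers Tpsab1 read 140.0 and 3418 (log2 ratio 4.61), while Cpa3 read 6616 and 1146 (-2.53) and Ms4a2 2093 and 791 (-1.40). Of 8 measured genes of the erythroid list, 5 were above 0 and 3 below. Alas2 read 283 and 3430.4 (3.60), and Zfpm1 (1.19) and Slc4a1 (0.86) were also higher. Tal1 (-0.56), Gata2 (-0.45) and Epor (-0.13) were lower. No marker had a signal of 0. The part of these cell types in the differences above was not tested.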

How the data were processed

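Total RNA from 2 samples, 1 per group, was hybridised to short-oligonucleotide arrays. The deposited values are linear signal intensities, 1 per probe set, made with GCOS per the submitters' processing notes; its version, and detection calls, are not given in the sources used here. Genes were named from the supplied platform annotation. Signals were rescaled to a common trimmed mean (2% cut at each end) without control probe sets, which left them almost as deposited, since the trimmed mean was already 500.0 on both arrays. At or above the floor were 49.2% and 50.9% of 45037 probe sets. A signal under the floor on 1 array was replaced by the floor, giving a bound. The number of arrays limits the precision, and no test was possible. Steps were tested on simulated data. Genes named by rule are all members, list genes past 2-fold, and Jak1, Tyk2, Socs1 and Psmb8; other list genes were named after their values were seen. Members and lists were chosen with earlier results of these data known. Alternatives changed the scaling, floor, probe set and threshold. Software: Python 3.11.15 with pandas 2.3.3, numpy 2.4.6, matplotlib 3.10.9 for plots and statsmodels 0.14.6 for loess.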

Additional observations from a re-analysis of the deposited data

How the results depend on the processing

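The count of listed genes at least 2-fold higher was 1 under 7 of the alternatives. It was 0 when the 70th percentile served as floor, where Usp18 was below the floor, 2 with no floor and 16 added to each signal, where Parp14 joined Usp18, and 2 and 0 at thresholds of 1.5-fold and 3-fold. The count at least 2-fold lower was 0 under every alternative except the 1.5-fold threshold, where it was 3. The median of the listed genes ran from -0.30 with a common median to -0.10 with no floor. A common median moved the median of all measured genes to -0.11 and that of the listed genes by about as much. Of 272 values of 32 single genes under the alternatives, 259 moved by less than 0.25 and 13 by more. No gene past 2-fold changed sign, while Ifi35, Ifnar2, Ifngr2 and Tyk2, all within 1.5-fold, did with another scaling or probe set. Counts over all genes depend on the floor and threshold: 209 higher and 113 lower became 439 and 288 when the floor was the 30th percentile, 130 and 65 when it was the 70th, 679 and 512 with no floor, 728 and 497 at 1.5-fold and 49 and 21 at 3-fold. No paired analysis was possible because each group holds 1 array. Signal over background limits the 14 genes below the floor, for which no difference could be read.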

Other observations

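Several of the listed genes are neighbours in the RefSeq gene order. Ifnar2, Il10rb, Ifnar1 and Ifngr2 lie in a row. Their log2 ratios on the brightest probe sets were 0.22, -0.17, -0.18 and -0.58, with 0.04 and -0.16 on the other Ifnar2 probe sets and 0.02 on the other Ifngr2 probe set, where Il10rb encodes a chain of the interleukin 10 receptor. Parp14, Dtx3l and Parp9 also lie in a row. Dtx3l (472 untreated and 331 with estradiol, log2 ratio -0.51) and its partner Parp9 (-0.33) were both lower, within the limit of 0.63. The second Dtx3l probe set gave -0.12. Parp14 read 27.4 and 80.2, below the floor on both arrays. Ifitm2, Ifitm1 and Ifitm3 lie in a row, and Ifitm2 was the only 1 of them measured.

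MHC class II genes were largely below the floor. Of 11 genes with a probe set of their own 3 (27.3%) were measured, against 56.3% of all genes, and their log2 ratios ran from -0.02 to 0.03. The class II heterodimer genes H2-Aa, H2-Ab1 and H2-Eb1 were below the floor on both arrays on every probe set, whereas the promoter-binding factor genes Rfx5 (825 and 818) and Rfxap (-0.02) were measured. Cd74, the invariant chain gene, read 221 and 225.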
